A study of Chamaelirium luteum with 2 samples.

Results

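Scaffolds 8, 11, 14, 15, 16, 18, 19, 21 and 22 of the Cha. luteum assembly are 9 of the 14 scaffolds, among the 22 longest, for which no centromere interval is listed. They were taken by name, as those left once scaffold 9 and the scaffolds with inter-chromosomal translocations (2, 6, 7 and 13) are set apart, and a peak was a member if it lay on one of them. They held 11193 of the 39233 ATAC-seq peaks of replicate 1 and 11713 of the 41385 peaks of replicate 2, which is 28.5% and 28.3% of each list, on 172.9 Mb or 23.9% of the length of the 22 scaffolds. The shares of peaks and of length have different bases. The lists also cover sequences beyond the 22 scaffolds, and the length includes the listed centromere intervals, so the shares do not measure an excess of peaks. The data are 2 libraries of a single condition, nuclei of fresh leaves of Chamaelirium luteum treated with the Tn5 transposase (Tagment DNA Enzyme, TDE1), with no treated or mutant group. About 75000 nuclei went into each library, and both ends of the fragments were read for 151 cycles. The labels do not say whether the libraries come from separate plants, so each SD below may reflect technical spread alone. Both sample labels carry the same code, which also stands in the peak names of replicate 1, while the peak names of replicate 2 carry another one; what the codes mean is not stated, and the labels were followed.

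ATAC-seq reads out open chromatin, since the transposase cuts and tags DNA mainly where nucleosomes are absent or displaced. In plant genomes such sites are known to lie mostly at promoters and other regulatory DNA, so a map of called peaks follows the gene-rich parts of chromosomes, whereas satellite arrays and other heterochromatin hold few. Cha. luteum is a monocentric species whose very large centromeres consist of satellite DNA. Its scaffolds were joined from Hi-C contacts and need not each be a whole chromosome, so a scaffold need not hold a centromere. The positions of genes and repeats and the sequence of the scaffolds were not used here, and peaks are therefore given by their coordinates alone, counted from 1 on the authors' scaffolds.

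Both libraries gave peaks throughout the 9 scaffolds. Their summits, the base of each peak with the most fragments, stood at 64.7 per Mb in replicate 1 and 67.7 per Mb in replicate 2, a mean of 66.2 ± 2.13 (SD, n = 2 libraries). Peaks covered 2.85% ± 0.0844 of the length in 1 library, and 3.51% lay under a peak of either. The lists carry no read totals. From the fold enrichment and p-value of a peak, the whole fragments covering its summit, as counted by MACS, could be worked out. Their median was 33 in both libraries, over a local background of 5.96 fragments in replicate 1 and 5.68 in replicate 2. No peak of either library had fewer than 11 fragments at its summit, so weaker sites are not in the lists. On these scaffolds, 80.2% ± 2.49 of the peaks of a library overlapped a peak of the other by at least 1 bp. The share was similar elsewhere. It was 78.6% ± 3.78 on the arms of the 8 scaffolds with a listed centromere, meaning their sequence outside its interval. On scaffolds 2, 6, 7 and 13 it was 81.7% ± 2.39, and on scaffold 9 it was 81.5% ± 3.85.

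The 9 scaffolds differ in length by a factor of 3.90, from 10.4 Mb (scaffold 22) to 40.6 Mb (scaffold 8), and in density by a factor of 1.28 ± 0.00321. Scaffold 14, of 22.1 Mb, was the densest, with 71.4 summits per Mb in replicate 1 and 74.2 in replicate 2. Scaffold 22 followed with 70.1 and 71.5, scaffold 15 with 67.0 and 72.0, and scaffold 18 with 68.2 and 70.6. Scaffold 8 had 66.2 and 68.4 summits per Mb, and scaffold 11, the second longest with 31.3 Mb, had 64.0 and 65.3. The densities of these 6 scaffolds, from 64.0 to 74.2, lay above those of the remaining scaffolds of the 9 in both libraries, without overlap. The margin was narrow in replicate 2. Scaffold 11 exceeded the next, scaffold 21, by 7.92 summits per Mb in replicate 1 and by 1.49 in replicate 2 (mean 4.70 ± 4.55).

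The 3 scaffolds with fewest summits per Mb were scaffold 21, with 56.1 in replicate 1 and 63.8 in replicate 2, scaffold 16, with 57.2 and 62.6, and scaffold 19, with 55.7 and 58.1. All 3 are short, from 11.2 to 14.9 Mb, but so are scaffolds 18 and 22. Neighbours in this order were often not separable: scaffolds 22 and 15, scaffolds 15 and 18, and scaffolds 21 and 16 changed places between the libraries. The means of scaffolds 21 and 16 were 0.0827 ± 1.66 summits per Mb apart (SD, n = 2), and those of scaffolds 15 and 18 were 0.102 ± 1.83 apart. Scaffold 19 was lowest in both libraries, below scaffold 16 by 2.93 ± 2.15, and scaffold 14 was highest in both, above scaffold 22 by 2.00 ± 0.967. These differences are given with their spread and no test, since an exact permutation test over 2 libraries cannot give a p below 0.5.

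Replicate 2 held more peaks than replicate 1 on each of the 9 scaffolds. This was not particular to them. The whole lists held 41385 and 39233 peaks, and replicate 2 was also higher on every other scaffold of the 22, centromere intervals left out. Outside the 9, the ratio of replicate 2 to replicate 1 ran from 1.02 (arms of scaffold 17) to 1.18 (arms of scaffold 20). It was 1.12 on the arms of scaffold 10. Within the 9 scaffolds the excess was uneven. On scaffold 21 replicate 2 had 714 peaks and replicate 1 had 627, a ratio of 1.14, and the higher count was found in 11 of its 11 full windows of 1 Mb. Scaffold 16 had a ratio of 1.10, with 933 against 852 peaks. On scaffolds 11 and 22 the ratio was 1.02, with 2043 against 2001 peaks and 745 against 730. In replicate 2, 70.9% of the peaks of scaffold 21 overlapped a peak of replicate 1, against 75.7% (scaffold 16) to 81.0% (scaffold 11) on the other 8 scaffolds. In replicate 1 scaffold 21 did not stand apart, with 80.5% of its peaks overlapping one of replicate 2 and 80.5% (scaffold 18) to 82.9% (scaffold 16) on the others. The median number of fragments at a summit was 30 on scaffold 21 in both libraries, the lowest of the 9.

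Scaffold length and density showed no clear relation. Over the 9 scaffolds the Spearman correlation was 0.13 and Pearson's r 0.21, given as a description with no p, since the scaffolds share the same libraries and assembly. The Spearman correlation was 0.15 in replicate 1 and 0.22 in replicate 2, and without scaffolds 8 and 11, the farthest from the median length, it was 0.29. The 3 scaffolds of at least 20 Mb had 67.7 ± 1.44 summits per Mb when pooled, with scaffold means between 64.7 and 72.8. The 6 shorter ones had 64.5 ± 2.94, with means between 56.9 and 70.8, so the short scaffolds spanned nearly the whole range. With scaffolds 2, 6, 7 and 13 added, the Spearman correlation over 13 scaffolds was 0.022.

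**Figure D1:**
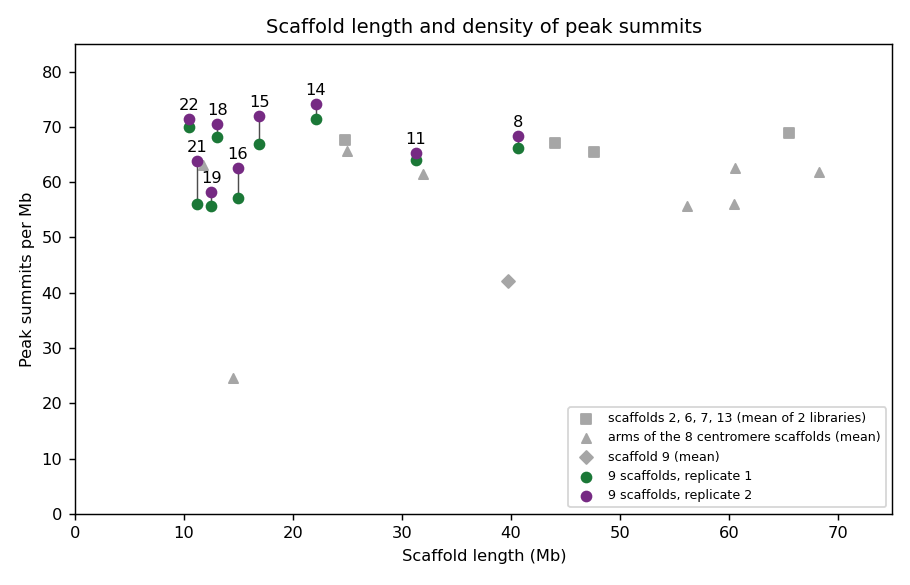
Peak summits per Mb (y axis) against scaffold length in Mb (x axis). Green and purple points are replicates 1 and 2 of the 9 numbered scaffolds, joined by a line, and grey symbols are the means of both libraries for the other scaffolds, with centromere intervals left out; the 9 scaffolds sit between 55.7 and 74.2 summits per Mb at lengths from 10.4 to 40.6 Mb.

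Pooled by length, the 9 scaffolds were denser than the arms of the 8 scaffolds with a listed centromere and close to scaffolds 2, 6, 7 and 13. The arms had 57.4 summits per Mb in replicate 1 and 61.5 in replicate 2, so that the 9 scaffolds were higher by 7.29 and 6.28, a difference of 6.78 ± 0.715 (SD, n = 2; p = 0.5 in an exact permutation test that flips signs of the 2 differences, two-sided, the smallest p that 2 libraries allow). The difference was 5.53 when the arms within 2 Mb of a centromere edge were left out and 6.40 when scaffold 17, with 24.6 summits per Mb, was left out. By scaffold the sets overlapped. As means of both libraries, the 9 scaffolds ran from 56.9 (scaffold 19) to 72.8 (scaffold 14) summits per Mb. Apart from scaffold 17, the arms ran from 55.8 (scaffold 5) to 65.7 (scaffold 12), so the difference holds for the pooled sets and not for each scaffold. Scaffolds 2, 6, 7 and 13 had 66.0 and 68.8 summits per Mb, and the 9 scaffolds were lower by 1.28 and 1.03 (mean difference -1.15 ± 0.175; exact sign-flip permutation test, p = 0.5). With only peaks that overlap one of the other library, this difference was -1.91. Scaffold 9 had 40.8 and 43.5 summits per Mb, and each of the 9 scaffolds lay above it in both libraries. It was not evenly sparse: 26.3% ± 1.43 of its 100-kb windows were empty, against 2.46% ± 0.205 on the 9 scaffolds. Its median distance between neighbouring summits, 9.27 ± 0.487 kb, lay within the 8.24 to 9.95 kb of the 9 scaffolds. The peaks themselves were alike in size: the median width was 368 ± 0 bp on the 9 scaffolds, 365 ± 4.60 bp on the arms and 371 ± 1.77 bp on scaffolds 2, 6, 7 and 13. The median fold enrichment, the ratio of the fragments at a summit to the background that MACS modelled, was 4.88 ± 0.199, 4.81 ± 0.221 and 5.01 ± 0.201 in the same order.

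Along the scaffolds, summits were present in all 169 full windows of 1 Mb, with 30 to 117 summits in a window of 1 library. The median window held 67.5 summits as the mean of both libraries, with 39.6 at the 5th percentile and 87.0 at the 95th. The windows of the 2 libraries rose and fell together (Spearman correlation 0.924 across windows, which are not replicates). The variance of the counts was 3.40 ± 0.139 times their mean in windows of 1 Mb, 3.14 ± 0.161 times in windows of 500 kb and 1.88 ± 0.0143 times in windows of 100 kb. For scaffolds 2, 6, 7 and 13 the ratio at 1 Mb was 3.82 ± 0.0893, and for scaffold 9 it was 23.3 ± 0.262. Most of the variation was within scaffolds: differences between the 9 scaffold means made up 11.5% of the variance of the windows. A window said little about the next one, with a Spearman correlation of 0.026 over 160 pairs of neighbouring windows.

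Scaffolds 14, 21 and 22 were the most even, with a coefficient of variation over their windows of 0.140, 0.156 and 0.156. On scaffold 14 the emptiest window, from 9000001 to 10000000, had 53 summits in the first library and 54 in the second, and the fullest, from 16000001 to 17000000, held 88 and 94. No other of the 9 scaffolds had an emptiest window as full. On scaffold 22 the counts ran from 50 and 47, in the window from 8000001 to 9000000, to 83 and 87, in that from 7000001 to 8000000, and these windows adjoin. The emptiest and the fullest window of scaffold 21 also adjoin: 38 and 47 summits lay between 10000001 and 11000000, next to 68 and 87 between 9000001 and 10000000.

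Scaffold 18 was the most uneven, with a coefficient of variation of 0.272. Its window from 2000001 to 3000000 reached 109 summits (replicate 1) and 117 (replicate 2), the most of the 169 windows, and that from 7000001 to 8000000 held 36 and 30. The densest 100-kb window of the 9 scaffolds, from 2600001 to 2700000 with 19 and 21 summits, lies in it and holds only part of them. The next densest 100-kb windows were both on scaffold 8, with 21 and 18 summits from 8100001 to 8200000 and 17 and 22 from 31800001 to 31900000. The median 100-kb window held 6 summits in both libraries.

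On scaffold 8 the emptiest and the fullest window of 1 Mb lay 1 Mb apart, near the middle of the scaffold. The former, from 19000001 to 20000000, held 32 and 33 summits, and the latter, from 21000001 to 22000000, held 100 and 98. On scaffold 11 the emptiest window was near the start, from 1000001 to 2000000, with 33 and 31 summits, and the fullest, from 19000001 to 20000000, held 81 and 90. Scaffold 15 ranged from 38 and 45 summits, between 15000001 and 16000000, to 94 and 106, between 1000001 and 2000000. Scaffold 16 had 31 and 32 summits between 12000001 and 13000000, the lowest mean of all 169 windows, and at most 77 and 76, between 7000001 and 8000000. Scaffold 19 had 36 and 39 summits between 7000001 and 8000000, and its fullest window, from 11000001 to 12000000, held 76 and 74.

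**Figure D2:**
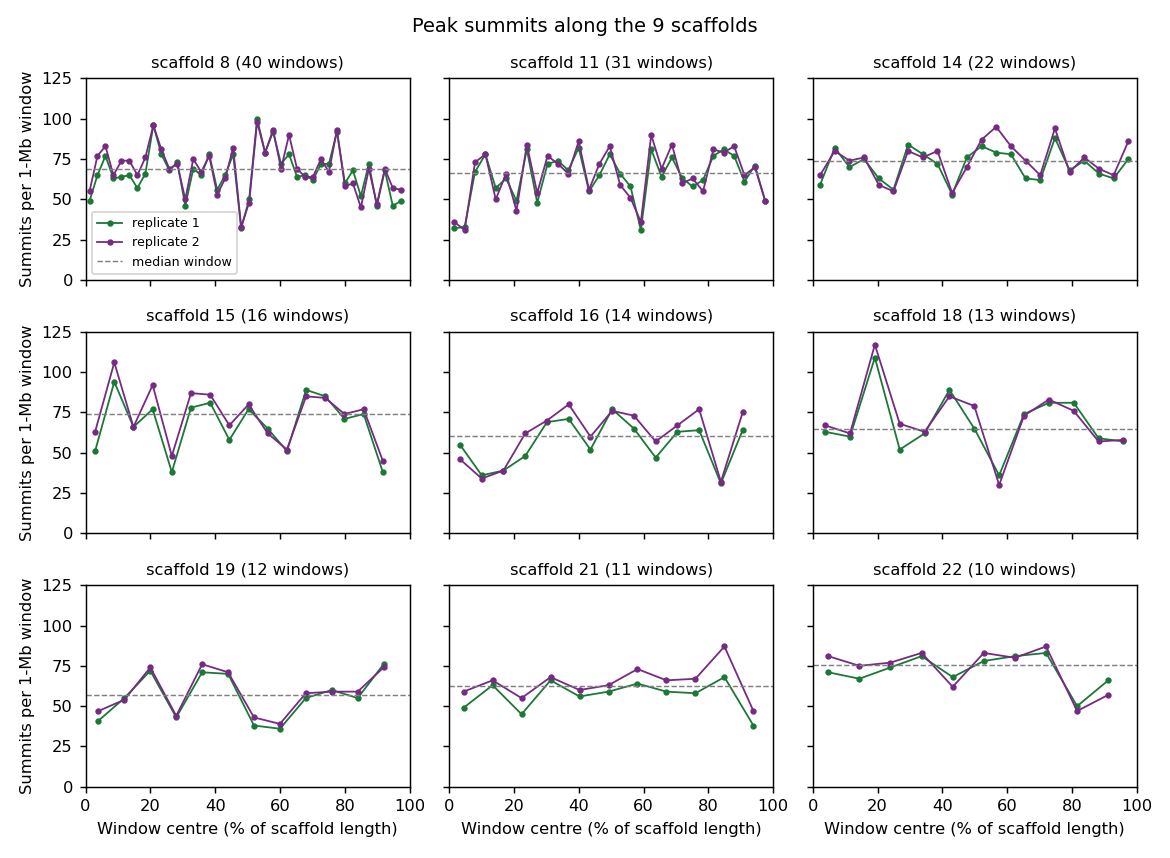
Peak summits in each full window of 1 Mb (y axis) against the centre of the window as a percentage of the scaffold length (x axis), with 1 panel per scaffold. Green and purple lines are replicates 1 and 2, and the dashed line is the median window of the scaffold; both libraries follow the same course, between 30 and 117 summits, and no panel shows a long stretch near 0.

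On each of the 9 scaffolds, the segment of at least 1 Mb with the strongest deficit of summits was taken from the summits of both libraries. The deficit was ranked by the highest Poisson log-likelihood ratio, on a grid of 50 kb. Any scaffold returns such a segment, and the density inside the listed centromere intervals was not set beside it. It therefore cannot show whether a centromere is present. The segments were 1 to 2.4 Mb long and held summits at 0.359 to 0.653 times the density of the rest of the scaffold. Since a segment was chosen for its low count, these values are a description. The deepest was on scaffold 19, from 6500001 to 7500000, with 22 summits in replicate 1 and 21 in replicate 2, against 60.0 ± 1.91 per Mb on the rest. On scaffold 11, 44 and 43 summits lay in 1.65 Mb from 600001 to 2250000, a density of 26.4 ± 0.429 against 66.8 ± 1.03. Scaffold 16 had 39 and 36 summits in 1.35 Mb from 1250001 to 2600000, and scaffold 18 had 45 and 37 in 1.2 Mb from 6900001 to 8100000. The shallowest deficit was that of scaffold 22, from 8000001 to 10400000, with 50.2 ± 2.65 summits per Mb against 76.9 ± 2.12. On scaffolds 15, 21 and 22 the segment reached to within 50 kb of the scaffold end.

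Scaffold ends held fewer summits than the rest, though not at every end. Over the 18 ends, the outermost 1 Mb had 56.8 ± 3.26 summits per Mb and the sequence between the ends 67.3 ± 1.99, a ratio of 0.843 ± 0.0234 (SD, n = 2). In both libraries, 13 of the 18 ends were below the rest of their own scaffold and 5 were above it. The lowest was the last 1 Mb of scaffold 8, with 33 summits in replicate 1 and 36 in replicate 2 where the rest had 68.5 per Mb. Next came the last 1 Mb of scaffold 21, with 30 and 35 against 63.6, and the first 1 Mb of scaffold 11, with 32 and 36 against 65.5. The last 1 Mb of scaffold 16 had the highest ratio, 1.42, with 75 and 92 summits against 58.8. At the opposite end of scaffold 16 were 55 and 46 summits. Scaffolds 8, 15, 18 and 21 were below their interior at both ends in both libraries, and no scaffold was above it at both. Scaffold ends are ends of the assembly and need not be chromosome ends.

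Peaks nevertheless came close to the scaffold ends. The distance from an end to the nearest peak had a median of 5.40 kb over 36 values (18 ends in 2 libraries), and 27 of these were under 20 kb. The longest was at the end of scaffold 21, where the last peak stopped 56.6 kb short in both libraries. When each scaffold was cut into 10 equal bins and the 9 scaffolds were pooled, bin 10 at the end had the fewest summits, 58.6 ± 2.33 per Mb, followed by bin 1 with 62.0 ± 3.48, and bin 4 had the most, 73.2 ± 1.92. Bins ran with the coordinates of each scaffold, and directions were not matched between scaffolds. A difference between bin 1 and bin 10 therefore gives no polarity, and long scaffolds weigh most in each bin.

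**Figure D3:**
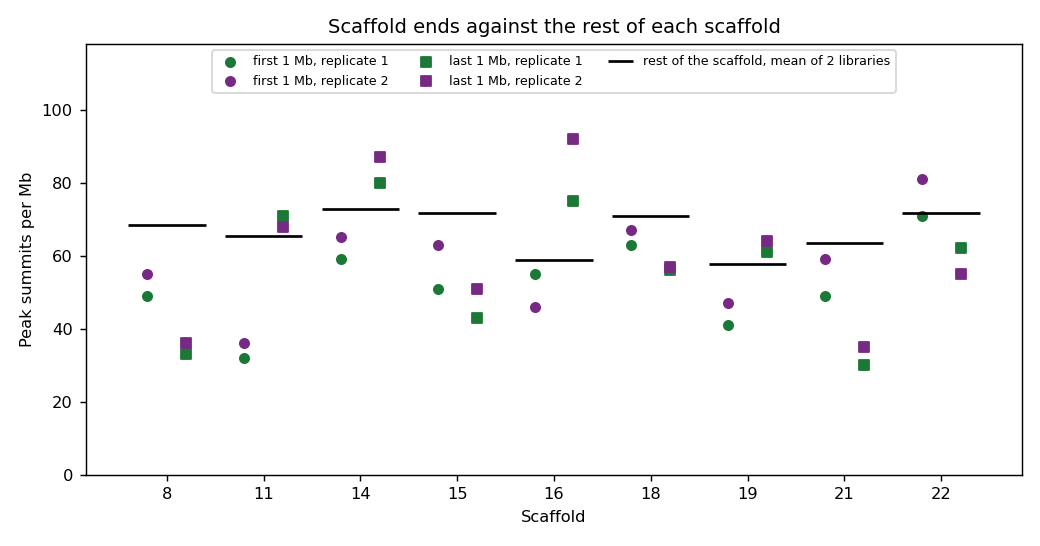
Peak summits in the first 1 Mb (circles) and the last 1 Mb (squares) of each scaffold, in replicates 1 (green) and 2 (purple); the black line is the density between the ends, as the mean of both libraries, on the same axis of summits per Mb. In 13 of the 18 ends both libraries lie below the rest of the scaffold, and the last 1 Mb of scaffold 16 lies above it with 75 and 92 summits.

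Peak width varied little between scaffolds. The median was 368 bp in both libraries, with the middle 50% of peaks from 258 to 537 bp in replicate 1 and from 257 to 532 bp in replicate 2, and the narrowest peak was 177 bp. Scaffold 22 had the widest peaks, with a median of 391 bp in replicate 1 and 397 bp in replicate 2, above the 347.5 to 379 bp of the other 8 scaffolds in either library. It also had the largest share of peaks of at least 1 kb, 4.54% ± 0.222, whereas the share over all 9 was 2.79% ± 0.0525 and that of scaffold 21, the next, 3.36% ± 0.00853. Peaks covered 3.25% ± 0.0649 of scaffold 22 and 2.47% ± 0.131 of scaffold 19, the highest and the lowest coverage. Scaffold 22 had the most fragments at its summits, a median of 36 in replicate 1 and 38 in replicate 2, and also the highest local background, 6.86 and 6.81 fragments, where scaffold 8 had 5.59 and 5.24. Its median fold, a ratio to that background, was 4.57 and 5.05, within the range of the other scaffolds (4.48 to 4.90 in replicate 1 and 4.78 to 5.26 in replicate 2). Wide peaks had more fragments at their summits (Spearman correlation 0.613 ± 0.00252 across peaks of 1 library, a description), so width and signal are not separate readouts, and their part in the width on scaffold 22 was not tested.

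The widest peaks called in both libraries were on scaffolds 11, 16 and 18. On scaffold 16 a peak from 8849466 to 8851369 in replicate 1 was 1904 bp wide, with 72 fragments at its summit, and its counterpart in replicate 2 was 1879 bp wide, with 77. On scaffold 18 a peak from 8839239 to 8841097 was 1859 bp wide in replicate 1 and 1940 bp in replicate 2, with 151 and 172 fragments. Other peaks were far wider in 1 library: the widest of replicate 1, of 2464 bp from 2697034 to 2699497 on scaffold 18, overlapped a peak of 711 bp in replicate 2, and the widest of replicate 2, of 2275 bp from 9977150 to 9979424 on scaffold 11, overlapped one of 347 bp in replicate 1. Another, on scaffold 11 from 12080482 to 12082760, was 2279 bp wide in replicate 1 and 1396 bp in replicate 2.

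The strongest peaks by fold lay on scaffolds 15, 16 and 18, and were narrower. The peak of scaffold 16 from 6140535 to 6141047 had the largest fold of both libraries, 22.7 in replicate 1 and 24.2 in replicate 2, with 238 and 297 fragments over a background of 9.54 and 11.3. It was followed by a peak of scaffold 18 from 3087363 to 3087817, with folds of 22.2 and 23.6 and 219 and 259 fragments. On scaffold 15 a peak from 16717887 to 16718423 had folds of 20.9 and 23.1, and one from 11968716 to 11969036 had 19.7 and 23.3. The first of these lies in the last 1 Mb of the scaffold, where only 43 and 51 summits were called. The summits of the strongest peak were at 6140788 and 6140783, and that of the peak at 16717887 was at 16718128 in both libraries.

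Over all 9173 pairs of overlapping peaks, the median distance between the summits of the 2 libraries was 38 bp, and 59.8% of the pairs lay within 50 bp. Fold ranked alike in the 2 libraries (Spearman correlation 0.884 across pairs), and so did fragments (0.931) and, less closely, width (0.748). Peaks found in 1 library alone were weak and narrow: their median was 19 fragments and 232.5 ± 0.707 bp, against 39.5 ± 2.12 fragments and 413.5 ± 6.36 bp for peaks that overlapped one of the other library. Of the peaks with a fold of at least 8, which made up 15.8% in replicate 1 and 20.8% in replicate 2, 99.9% ± 0.203 overlapped a peak of the other library, and of those under 300 bp 57.4% ± 5.54.

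Neighbouring summits of 1 library lay a median of 8.63 ± 0.252 kb apart (SD, n = 2), with a mean of 15.1 ± 0.485 kb. The middle 50% of the distances ran from 3.29 ± 0.132 to 18.7 ± 0.587 kb. Of the distances, 6.66% ± 0.138 were under 1 kb and 17.1% ± 0.574 under 2 kb. These shares were not compared with those of randomly placed summits. Runs of 3 or more summits, each within 2 kb of the next, numbered 226 in replicate 1 and 264 in replicate 2, and the largest held 5 summits. Wide spaces were few and took much of the length: the 5.15% ± 0.339 of distances of at least 50 kb made up 27.3% ± 1.13 of the sequence between summits. Peaks with no other summit within 50 kb on either side numbered 63 in replicate 1 and 44 in replicate 2.

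Spacing followed density. Averaged over both libraries, median distances were 8.24 to 8.30 kb on scaffolds 14, 22, 18, 15 and 8, which were not separable within their SDs, 8.87 kb on scaffold 11, and 9.73 to 9.95 kb on the 3 sparse scaffolds 21, 16 and 19. The share of distances of at least 50 kb was 3.83% ± 0.237 on scaffold 14 and 7.04% ± 0.210 on scaffold 19. Close pairs did not follow the same order. Distances under 1 kb made up 8.40% ± 0.579 on scaffold 18 and 7.96% ± 0.641 on scaffold 21, which is among the sparse scaffolds, and 5.71% ± 0.284 on scaffold 8 and 5.85% ± 0.545 on scaffold 14, the densest. Scaffold 14 therefore combined the highest density with low shares of both close pairs and distances of at least 50 kb. By length, stretches of at least 100 kb without a peak of either library were not rare on it. They numbered 4.98 per 10 Mb, against 1.92 (scaffold 22) to 6.40 (scaffold 19) on the others. The median distance of the 9 scaffolds was 0.654 ± 0.141 kb shorter than that on the arms of the 8 scaffolds with a centromere and 0.119 ± 0.0499 kb longer than that on scaffolds 2, 6, 7 and 13 (exact sign-flip permutation test over the 2 libraries, p = 0.5 for each). Both differences largely restate those in density.

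**Figure D4:**
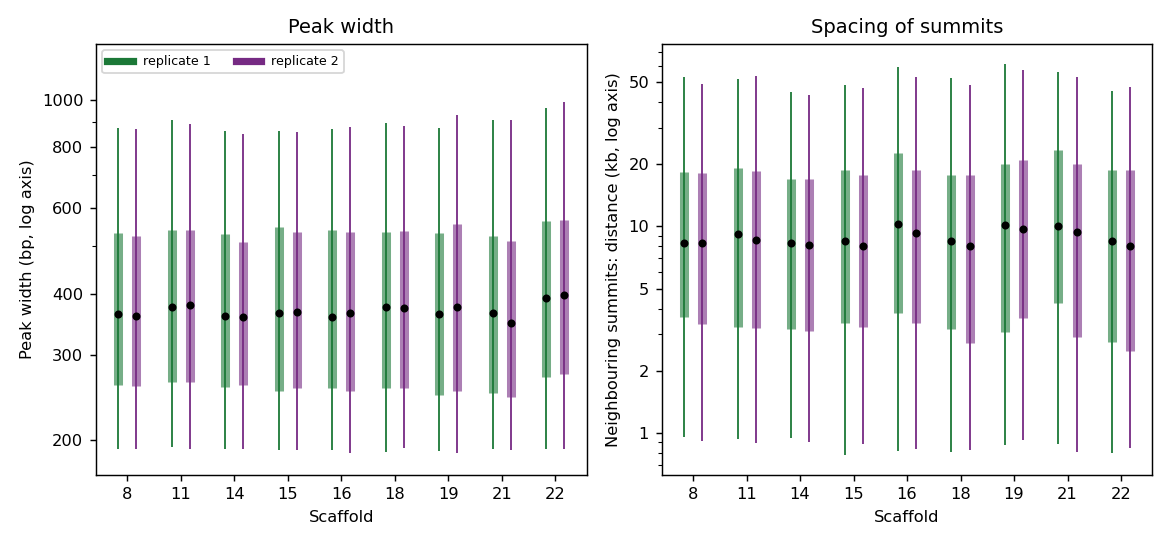
Peak width in bp (left) and distance between neighbouring summits in kb (right), both on log axes, for each scaffold in replicates 1 (green) and 2 (purple). Black points are medians, thick bars the 25th to 75th percentile and thin lines the 5th to 95th; median widths lie between 347.5 and 397 bp, with both libraries of scaffold 22 highest.

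Between them, the 2 libraries left no very long stretch without a peak. The 9 scaffolds had 13662 stretches free of peaks of either library, with a median length of 6.77 kb. Of these, 80 were at least 100 kb long, making up 6.36% of the sequence, and 7 were at least 200 kb. The longest of each scaffold had a median of 209.95 kb over the 9 scaffolds. On scaffolds 2, 6 and 7 the longest stretch was 192, 212 and 216 kb, while it was 893 kb on scaffold 13 and 1040 kb on scaffold 9.

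The longest stretch, of 431 kb, lay on scaffold 8 from 34743043 to 35174160, and it was 431 kb in replicate 1 alone and 442 kb in replicate 2 alone. The next of scaffold 8 was far shorter, at 172 kb, from 20758164 to 20929665. Scaffold 19, the sparsest, had 2 long stretches, of 349 kb from 7780742 to 8130130 and of 270 kb from 3455527 to 3725759. Neither lies in the segment poorest in summits, which ends before the former begins. On scaffold 16 the longest stretch, of 249 kb from 12214873 to 12464178, lies in the emptiest window, and a second, of 171 kb from 1831270 to 2002140, lies in the poorest segment. Scaffold 15 had stretches of 218 kb, from 13134800 to 13352854, and 213 kb, from 14927303 to 15140362, the latter within its poorest segment. Scaffold 14 had one of 209.95 kb from 5583415 to 5793367, again within the poorest segment.

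On scaffold 11 the longest stretch was 195 kb, from 767841 to 963140, in its poorest segment, and another of 187 kb lay near the opposite end, from 29969462 to 30156018. Scaffold 18 had 180 kb from 7677706 to 7857330, within its emptiest window. The shortest maxima were those of scaffold 21, with 132 kb from 7035907 to 7167818, and scaffold 22, with 115 kb from 10231564 to 10346858. None of these 9 longest stretches reached a scaffold end. Scaled by length, stretches of at least 100 kb were rarest on scaffold 22, with 1.92 per 10 Mb, and most frequent on scaffolds 19 and 16, with 6.40 and 6.04. Scaffold 21 had 5.36 such stretches per 10 Mb although its longest was among the shortest maxima. Reads with several matches were removed before peaks were called, so sequence where reads do not map uniquely can hold no peak. Whether reads map uniquely in these stretches was not tested.

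**Figure D5:**
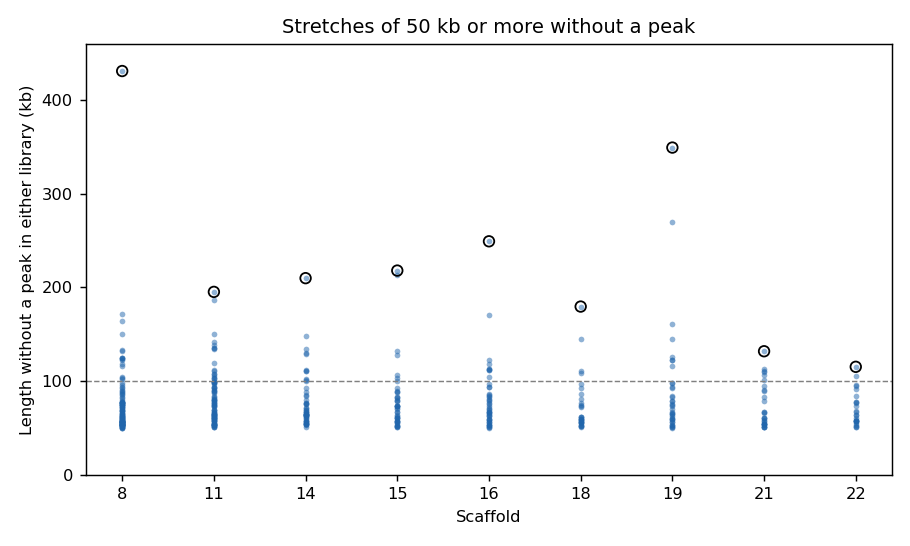
Length in kb (y axis) of every stretch of at least 50 kb without a peak in either library, by scaffold (x axis); each point is a stretch, the circle marks the longest of the scaffold and the dashed line stands at 100 kb. Scaffolds 8 and 19 stand out with 431 and 349 kb, while the longest of scaffolds 21 and 22 are 132 and 115 kb.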

How the data were processed

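Reads were trimmed (fastp) and aligned to the Cha. luteum assembly (BWA-MEM) by the authors, who then discarded duplicates and reads with several matches (SAMtools) and ran MACS on each library. The deposited lists give for each peak its start, end and summit, a fold (a ratio to the modelled background), a −log10 p, a −log10 q (at least 2.00) and a score derived from the −log10 q. Not given in the sources used here are the genome size set in MACS, read shifting, and whether organelle reads were removed. Whether MACS counted read pairs or single reads is not given either, so fragments here are the units that it counted. The total number of reads is unknown.

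Scaffold lengths and centromere intervals were read from the assembly's scaffold list. Whole fragment numbers were solved from the fold, (fragments + 1) / (background + 1), and the Poisson p, and for 100% of the peaks returned the −log10 p to a tolerance of 0.0001. The lowest background MACS used was 3.38 (replicate 1) and 3.18 (replicate 2) fragments. Values were computed per library and averaged. Regions named are the 9 scaffolds, the fullest and emptiest full 1-Mb window, the first and last 1 Mb, the longest stretch without a peak and the poorest segment of each, the 3 peaks of largest fold and of largest width per library that overlap one of the other, and the 3 densest 100-kb windows; the other stretches and scaffold-level contrasts named were chosen after values were seen. Members, lists and alternatives were chosen with earlier results of these data known. Scripts were tested on simulated data and ran in Python 3.11.15 (scipy 1.17.1, numpy 2.4.6, matplotlib 3.10.9, pandas 2.3.3).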

Additional observations from a re-analysis of the deposited data

How the results depend on the processing

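Of 66 values under alternative settings, 44 moved by no more than the SD between the libraries, or kept their sign where the result is a difference. The other 22 moved by more. No difference in density changed its sign, and only for these differences was a reversal looked for. Part of the 44 was fixed in advance, since leaving out 1 library cannot move a mean of 2 by more than their SD. Likewise, placing peaks at their midpoint cannot change the count on a scaffold. When peaks were required to have −log10 q values of 5 or more, the density was 55.8 summits per Mb, the ratio of the highest to the lowest scaffold 1.33, the median width 402 bp, the median spacing 10.2 kb, the longest stretch 442 kb, the variance ratio of 1-Mb windows 3.25, the ratio of ends to interior 0.795, the median fold 5.41 and the share of overlapping peaks 83.9%. With only peaks that overlap one of the other library, the density was 53.1, the ratio of scaffolds 1.31, the width 413.5 bp, the spacing 10.8 kb, the longest stretch 442 kb, the ratio of ends to interior 0.790 and the fold 5.50. These settings hold fewer peaks by construction. In both, scaffold 14 was again the densest and scaffold 19 the sparsest. With the span between the outermost summits as length, the ratio of scaffolds was 1.27. Over 13 scaffolds the correlation of length and density was 0.022, windows of 500 kb gave a variance ratio of 3.14, and an overlap of at least 50% of both peaks gave a share of 73.4%. Leaving out 1 library, the correlation ranged from 0.15 to 0.22 and the longest stretch from 431 to 442 kb. The difference from scaffolds 2, 6, 7 and 13 was -1.91 with only overlapping peaks. The exact permutation test used here cannot go below p = 0.5 with 2 libraries, so it could call no difference.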
